A study of Mus musculus with 4 samples.

Results

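Mitosis, spindle and kinetochore genes were examined as a group of 59 named genes of the G2 and M phases, taken from the 18390 genes tested. A gene was included if a probe of the array carried its name and had spots that Agilent's software marks as well above background on both arrays of either genotype, and the brightest such probe stood for the gene. All 59 listed genes met this rule, 58 of them on all 4 arrays, while Cenpf met it through the SerpinB2-/- arrays alone. Expression had been measured on 4 one-colour Agilent arrays of RNA from primary tubular cells grown out of the kidneys of male mice aged 8 weeks on a B6.J background. The 2 wild type and the 2 SerpinB2-/- samples had all received the phorbol ester PMA, an activator of protein kinase C, at 100 ng/ml, and no untreated culture was analysed here. SerpinB2 encodes plasminogen activator inhibitor-2, and the series title names kidney injury, the immune response and renal ageing as the subject. The labels give neither the deleted part of the gene nor whether samples came from separate animals or cultures, so the p-values measure only the spread between these samples, which may be technical.

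Cells divide through an ordered programme. Cyclin B and CDK1 drive entry into mitosis, condensins and topoisomerase compact the chromosomes, and kinetochores built on centromeres couple them to spindle microtubules. The spindle checkpoint holds the anaphase-promoting complex (APC/C) inactive until all chromosomes are attached, after which securin and cyclin B are degraded and cytokinesis separates the daughter cells. Many genes of this programme are transcribed together late in the cycle, under B-MYB, FOXM1 and the MuvB core acting at CHR elements, with NF-Y at CCAAT boxes. Tubular epithelium of the healthy adult kidney divides rarely and re-enters the cycle after injury and in culture.

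The promoters of the group were read for these elements. Its members were chosen as G2 and M genes, so a high share describes the choice of genes and not the genotypes. RefSeq promoter windows (GRCm38.p6, 250 bases before to 50 bases after the gene start) were at hand for 50 of the 59 genes, in 55 windows. The CHR letters TTTGAA were found on either strand in 36 of the 55 windows (65.5%), against 12.6% of 15208 windows of genes tested and 17.9% of all 32851 windows. CCAAT was present in 41 windows (74.5%), against 37.4% of each background. Both lay in 32 windows (58.2%), against 5.02% of the windows of tested genes and 6.95% of all windows. The variant TTCGAA was seen in 4 windows (7.27% against 1.99% of tested genes), and GGCGG placed 4 bases before TTTGAA, a match that is also counted under the CHR, in 1. The E2F letters TTTGGCG occurred in 3 windows (5.45% against 2.28% of tested genes). The further E2F letters TTTCCCG occurred in 4 windows (7.27% against 5.06%). Both strands were searched for every motif, and a match is a description of letters, not of a bound site.

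The promoters printed here belong to the 4 members with both elements and the highest log2 changes in the fit described below. With another background correction (normexp) the change was 0.55 for Ncapg and 0.49 for Ttk, below Hmgb2 (0.67) and Top2a (0.62). Each promoter is given 5′ to 3′ in the direction of transcription, with capitals marking every TTTGAA and CCAAT on either strand. The windows lie at chr5:45669675-45669974 (plus strand), chr9:83834439-83834738 (plus), chr8:57511593-57511892 (plus) and chr11:99024140-99024439 (minus). Ncapg encodes a condensin subunit, Ttk a checkpoint kinase, Hmgb2 a DNA-bending protein of chromatin and Top2a the topoisomerase that untangles sister chromatids.
Ncapg: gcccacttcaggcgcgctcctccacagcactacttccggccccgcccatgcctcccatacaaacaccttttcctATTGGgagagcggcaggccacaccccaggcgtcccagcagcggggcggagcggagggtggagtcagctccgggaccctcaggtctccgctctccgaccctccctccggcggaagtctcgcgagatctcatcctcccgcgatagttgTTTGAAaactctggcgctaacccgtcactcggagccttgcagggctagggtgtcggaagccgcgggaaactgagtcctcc
Ttk: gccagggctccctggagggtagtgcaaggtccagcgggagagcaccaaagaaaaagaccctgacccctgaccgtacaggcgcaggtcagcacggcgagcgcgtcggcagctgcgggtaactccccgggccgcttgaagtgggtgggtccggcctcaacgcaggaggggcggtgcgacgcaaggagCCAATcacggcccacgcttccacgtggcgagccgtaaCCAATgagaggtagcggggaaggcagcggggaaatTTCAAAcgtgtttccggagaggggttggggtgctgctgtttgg
Hmgb2: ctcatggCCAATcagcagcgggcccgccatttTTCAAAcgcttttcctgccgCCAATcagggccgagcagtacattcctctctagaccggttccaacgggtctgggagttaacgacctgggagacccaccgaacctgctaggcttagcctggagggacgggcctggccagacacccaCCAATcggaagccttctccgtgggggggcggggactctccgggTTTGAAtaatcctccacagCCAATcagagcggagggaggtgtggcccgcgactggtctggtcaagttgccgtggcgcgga
Top2a: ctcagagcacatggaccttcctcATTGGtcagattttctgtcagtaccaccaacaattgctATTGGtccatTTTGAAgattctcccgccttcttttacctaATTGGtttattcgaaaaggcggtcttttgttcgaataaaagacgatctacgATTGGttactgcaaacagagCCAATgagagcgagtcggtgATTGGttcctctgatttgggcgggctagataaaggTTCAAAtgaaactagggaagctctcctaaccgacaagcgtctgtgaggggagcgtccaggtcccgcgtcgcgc
In Ncapg the single CHR begins at position -30 from the gene start and the single CCAAT box at -176, on the reverse strand. Ttk carries its CHR at position 8 downstream of the start, on the reverse strand, and CCAAT boxes at -65 and -28. Hmgb2 has a CHR at -30 and a further one at -218, with 4 CCAAT boxes, and Top2a a CHR at -23 and a further one at -179, with 6 CCAAT boxes. Over all windows of the group the 47 CHR matches had a median position of -18, and 35 of them began within 100 bases of the start. The 85 CCAAT matches had a median position of -68, with 58 within 100 bases. A site shared by overlapping windows of a gene, as in Bub3, Ect2 and Prc1, was counted in each window.

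**Figure D1:**
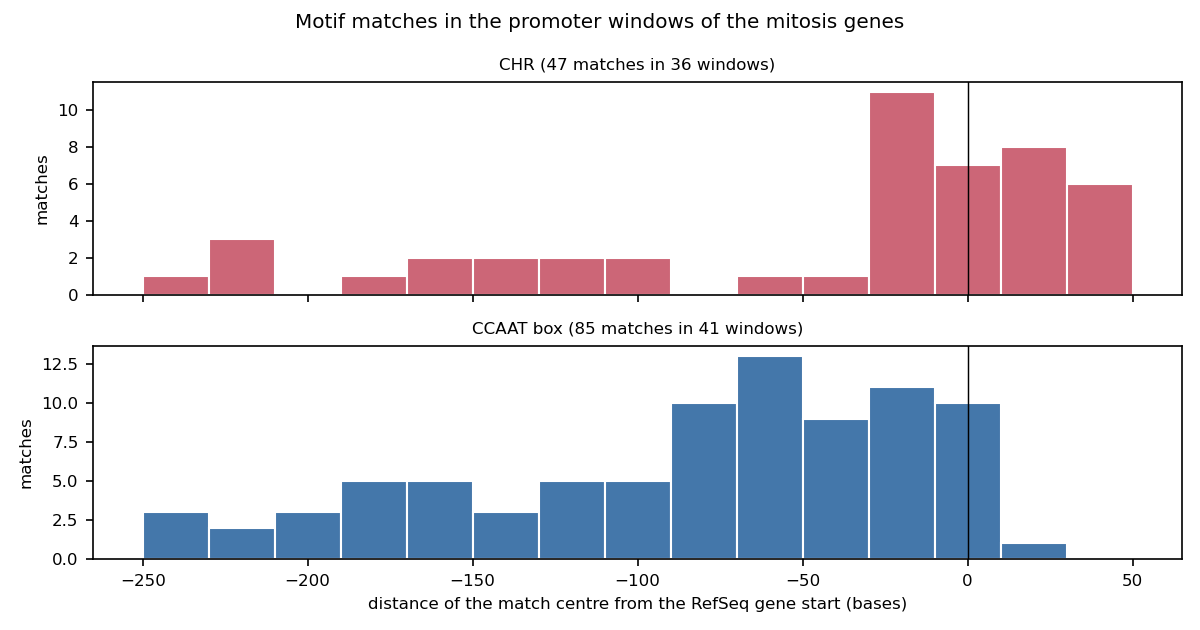
Number of CHR (upper panel) and CCAAT (lower panel) matches by the distance of the match centre from the RefSeq gene start, in bases, over the 55 promoter windows of the mitosis genes (bins of equal width). The 47 CHR matches lie mostly around the start, with a median first base of -18, and the 85 CCAAT matches mostly upstream of it, with a median of -68.

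Members with and without an element both had positive medians. The median log2 change was 0.49 in the 33 genes with a CHR and 0.57 in the 17 without, and 0.48 in the 36 genes with a CCAAT box and 0.53 in the 14 without. Outside this group and the further cell cycle lists named below, 666 tested genes had both elements in a window, and 55 of them (8.26%) were higher in SerpinB2-/- cells, against 649 of 11824 genes with any window (5.49%). Lower were 58 of the 666 genes, against 1186 of the 11824. The median log2 change of the 666 genes was 0.02.

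The targeted gene went with the labels. Its probe read 3047 and 3382 units of unscaled signal in the wild type samples, and 5.86 and 7.04, below the background mark, in the SerpinB2-/- samples, lower by at least 140-fold (limma, adjusted p = 0.000689). Each array had its 75th percentile of signal at 1902 to 2143 units and 23404 to 24471 probes past the background mark, with 0 saturated spots. Values are given below as scaled units, in which this percentile is 1000 on each array, and levels of different genes are not compared since each probe has its own brightness. All 8 epithelial markers chosen were measured, Krt8 and Krt18 among them, and 10 of 12 proximal tubule markers (not Slc5a2 and Slc22a8), but only 4 of 10 markers of the distal nephron (Umod, Slc12a1, Slc12a3, Calb1, Kcnj1 and Cldn8 were not well above background). Markers of other cell types were also measured, 10 of 12 fibroblast and pericyte, 8 of 10 endothelial and 12 of 12 leukocyte markers being well above background.

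Transcripts of the mitosis group were higher in SerpinB2-/- cells. Of the 59 genes 50 rose (84.7%) and 0 fell, by limma on log2 scaled signal with Benjamini-Hochberg adjustment over all 18390 genes and a threshold of 0.05, while 6.01% of all genes rose and 9.67% fell, 15.7% in either direction. At an unadjusted p under 0.05, 55 were higher and 0 lower, while 2860 of all 18390 genes were higher and 3429 lower. Of the 58 genes measured on all 4 arrays 49 rose. The median log2 change was 0.51 (1.43-fold), with quartiles of 0.40 and 0.60 and a range of -0.098 to 1.06, beside a median of 0.0060 for all genes tested. In 57 of the 59 genes both SerpinB2-/- samples lay above both wild type samples, an arrangement found in 32.5% of all genes. At least 1.5-fold rises were seen in 18 members, against 1.27% of all genes, and Aurkb was the one that reached 2-fold, though its log2 change was 0.47 with normexp, a different background correction.

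The shift was of similar size in both SerpinB2-/- samples. Relative to the wild type mean of each gene, the median over the 59 genes was -0.017 and 0.017 in the wild type samples and 0.52 and 0.49 in the SerpinB2-/- samples. The medians over all genes tested stayed between -0.0048 and 0.014. Within a genotype the members differed by a median of 0.066 (wild type) and 0.077 (SerpinB2-/-) in absolute log2 value, beside 0.082 and 0.080 for all genes. The members were not independent of each other, and no p-value is given for the group. They were spread over 17 chromosomes, with at most 11 on one (chromosome 2) and 4 on chromosome 1, which holds Serpinb2.

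**Figure D2:**
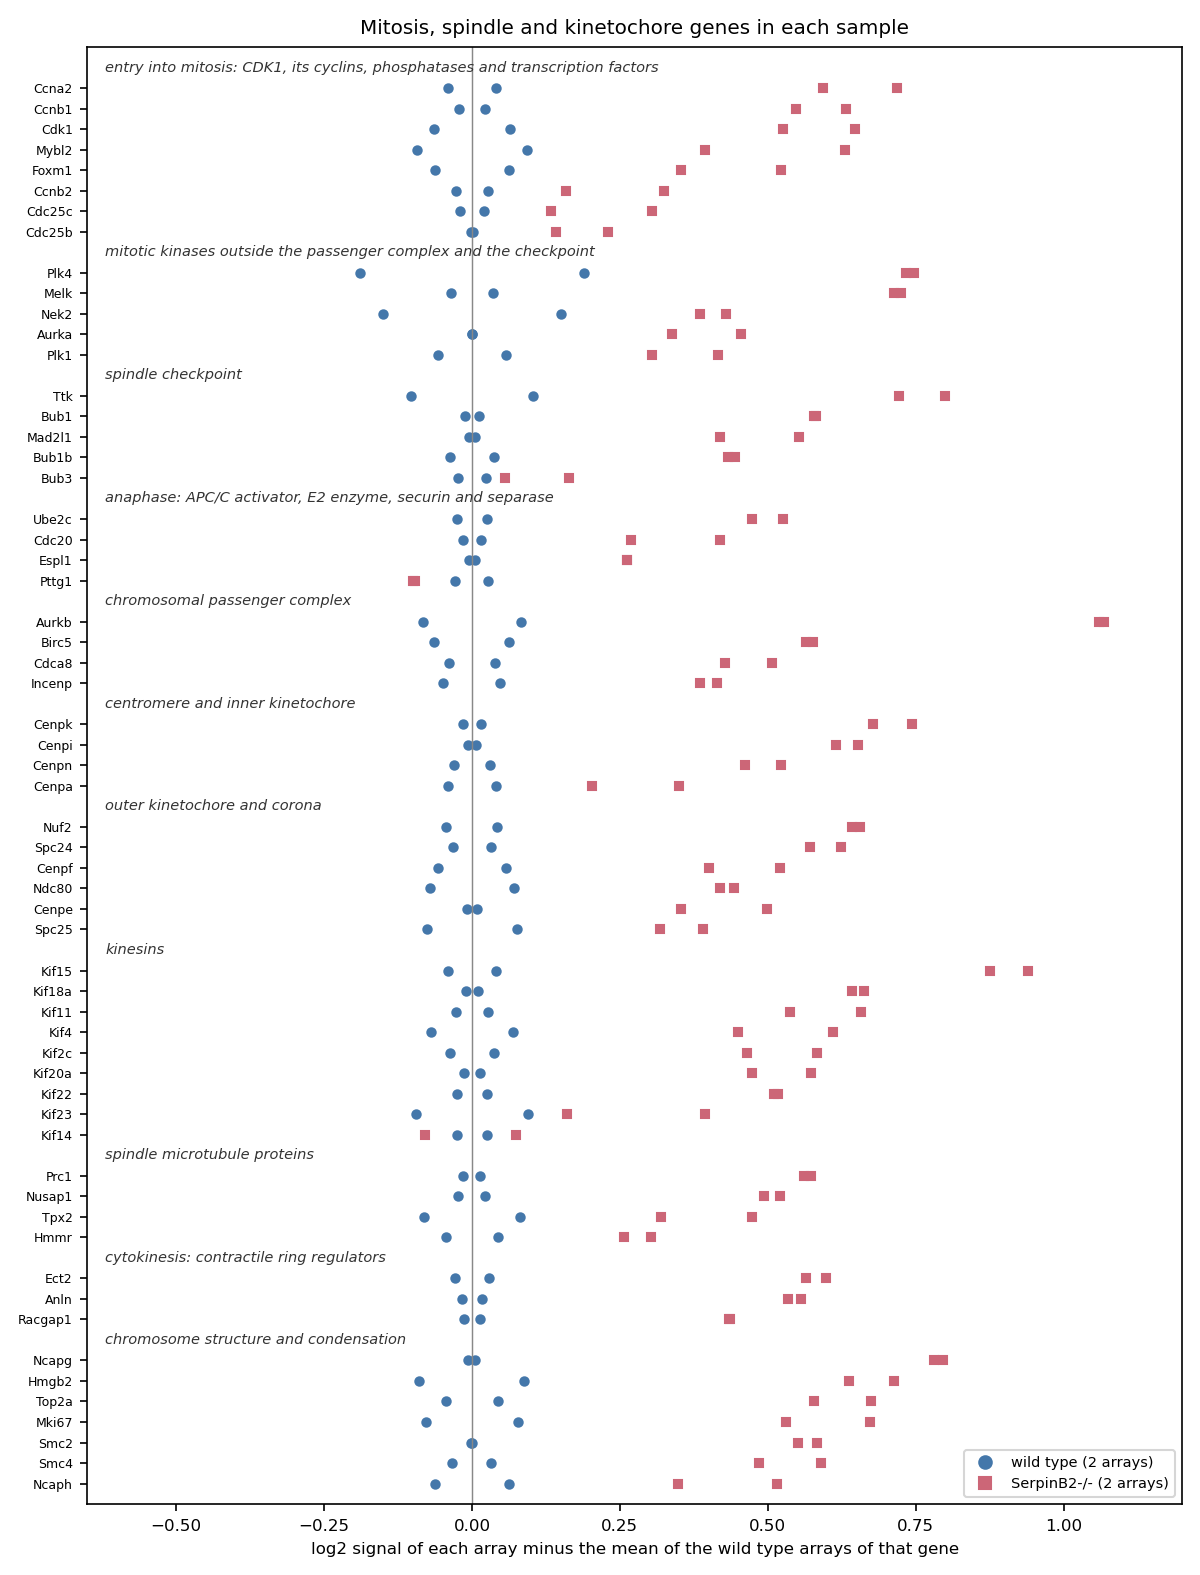
Log2 signal of each of the 59 genes in each array, minus the mean of the 2 wild type arrays of that gene (horizontal axis), with blue circles for wild type and red squares for SerpinB2-/- arrays and genes ordered by role and change. The SerpinB2-/- squares lie to the right of the circles in 57 of 59 genes, the exceptions being Pttg1 and Kif14.

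Removing 1 array lowered the number of members that rose, to 19 without wild type replicate 1, 21 without wild type replicate 2, 33 without SerpinB2-/- replicate 1 and 36 without SerpinB2-/- replicate 2, while the median log2 change stayed between 0.49 and 0.52. In these fits 1.14%, 1.18%, 2.70% and 2.03% of all genes rose, and 15 members rose in all 4 of them: Aurkb, Kif15, Ncapg, Ttk, Melk, Cenpk, Hmgb2, Kif18a, Nuf2, Cenpi, Spc24, Ect2, Bub1, Prc1 and Smc2. With all arrays, the filter and moderation kept, 40 of the 50 rose under every setting, and Foxm1, Mybl2, Plk1, Cdc20, Espl1, Spc25, Cenpf, Tpx2, Hmmr and Ncaph did not pass in at least 1. None rose in an unmoderated test or with dim probes kept, where 44 and 52 members were higher at an unadjusted p under 0.05. The share of all genes at that unadjusted cut was not counted in these fits.

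Markers of other cell types differed in the same samples, and in bulk RNA fewer cells of a type cannot be told apart from less RNA per cell. The sums took the brightest probe of every listed marker, also where it was not well above background. Counts and medians cover the measured markers. The summed signal of the 12 listed fibroblast and pericyte markers was 175448 and 141777 units in the wild type and 184977 and 214884 in the SerpinB2-/- samples. Of the 10 measured, 3 were higher past the threshold (Postn, Mfap5 and Col3a1) and 0 lower, with a median of 0.33, while Lum and Rgs5 were not well above background. Acta2, Col1a2 and Col1a1, which did not pass, changed by 0.31, 0.28 and 0.35. They held 94239.5, 47099 and 26020 units of the sum in wild type replicate 1. Of the 10, 8 had a log2 change above 0, and Thy1 and Dcn changed by -0.64 and -0.33 without passing. The sum of the 8 epithelial markers was 265417 and 259464 units against 205191 and 218612, with 5 lower and a median of -0.43. Krt8, among these 5, and Krt18, which did not pass, held 102828 and 130301 units of the sum in wild type replicate 1. Their changes were -0.29 and -0.23. The endothelial sum was 4710.1 and 4624 units against 2900 and 3546, with 7 of 8 lower and a median of -1.52. Kdr, which did not pass, changed by 0.046 and held 2486 and 2116 units of the wild type sums. The leukocyte sum was 12303 and 11272 units against 9870 and 9567, with 8 of 12 lower and a median of -0.54. Itgam, which did not pass, changed by -0.090 and held 6266 and 5656 units of the wild type sums. Proximal tubule markers summed to 6260 and 6448 units against 6854 and 7098, with 1 higher and 1 lower of 10 and a median of 0.0012. Distal nephron markers summed to 892 and 936 units against 508 and 551, with 3 of 4 lower and a median of -0.94. The part of these differences in the change of the mitosis genes was not tested. The wild type arrays held the first and the SerpinB2-/- arrays the last places on 1 slide, so that place and genotype cannot be told apart.

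Entry into mitosis. Of the 8 genes of this step 5 rose: the kinase Cdk1, the cyclins Ccna2 and Ccnb1, and the transcription factors Foxm1 and Mybl2 (B-MYB). Cdk1 gave 2084 and 1905 units in the wild type and 3121 and 2868 in the SerpinB2-/- samples (log2 0.59 ± 0.079, adjusted p = 0.0164; SE, n = 2 per group, here and below). Its partner Ccnb1 gave 2199 and 2133 units in the wild type and 3165 and 3357 in the SerpinB2-/- samples (log2 0.59 ± 0.062, adjusted p = 0.0104), and its earlier partner Ccna2, of S and G2 phase, gave 2516 and 2662 units in the wild type and 4260.4 and 3905 in the SerpinB2-/- samples (log2 0.66 ± 0.073, adjusted p = 0.0111). Each of these groups was separated by far more than the spread within it. Foxm1, with 516 and 563 units in the wild type and 774 and 689 in the SerpinB2-/- samples (log2 0.44 ± 0.087, adjusted p = 0.0366), and Mybl2, with 1827 and 2077 units in the wild type and 3015 and 2560.0 in the SerpinB2-/- samples (log2 0.51 ± 0.11, adjusted p = 0.0438), had wider SerpinB2-/- pairs, replicate 1 being the higher, but did not overlap with wild type.

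The other 3 genes of entry had smaller differences that did not pass, although their groups did not overlap either. Ccnb2, the second B-type cyclin, gave 3065 and 2955 units in the wild type and 3362 and 3767 in the SerpinB2-/- samples (log2 0.24 ± 0.078, adjusted p = 0.103; 95% interval 0.04 to 0.44). Cdc25b and Cdc25c, phosphatases that remove the inhibitory phosphates from CDK1, differed by 0.19 ± 0.061 (interval 0.026 to 0.34, adjusted p = 0.109) and 0.22 ± 0.078 (interval 0.015 to 0.42, adjusted p = 0.128). Cdc25b stood at 392 and 394 units against 433 and 461, and Cdc25c at 63.7 and 65.6 units against 70.9 and 79.8. A difference in change between Ccnb1 and Ccnb2 was not tested.

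Mitotic kinases. Polo-like and Aurora kinases build the spindle poles and start chromosome segregation, and 4 of these 5 kinases rose. Plk4, the kinase of centriole duplication, stood at 67 and 87.1 units in the wild type and 128 and 127 in the SerpinB2-/- samples (log2 0.74 ± 0.13, adjusted p = 0.0298), with a gap between its wild type samples. Melk, a kinase made in G2 and M, was the tightest, at 999.9 and 951 units in the wild type and 1611 and 1598 in the SerpinB2-/- samples (log2 0.72 ± 0.059, adjusted p = 0.00762). Plk1, at 4349 and 4713 units in the wild type and 6039 and 5589 in the SerpinB2-/- samples (log2 0.36 ± 0.075, adjusted p = 0.041), and Aurka, at 2951 and 2954 units in the wild type and 3731 and 4048 in the SerpinB2-/- samples (log2 0.40 ± 0.066, adjusted p = 0.0255), changed less. Plk1 did not pass with normexp (adjusted p = 0.0532), with quantile normalization or with the replicate number as a block. The centrosomal kinase Nek2 gave 250.5 and 309 units in the wild type and 363 and 374 in the SerpinB2-/- samples, a difference of similar size that did not pass (log2 0.41 ± 0.11, adjusted p = 0.0747; interval 0.12 to 0.70).

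Spindle checkpoint. Of 5 checkpoint genes 4 rose. The kinase Ttk (Mps1), which starts the checkpoint at unattached kinetochores, gave 41.7 and 48.1 units in the wild type and 78 and 73.9 in the SerpinB2-/- samples (log2 0.76 ± 0.089, adjusted p = 0.0123) at a dim probe. Its change was 0.49 with another background correction (normexp), which adds a fixed offset to every signal. Bub1, a kinase that marks the centromere, gave 802 and 816 units in the wild type and 1209 and 1207 in the SerpinB2-/- samples (log2 0.58 ± 0.055, adjusted p = 0.00887), and both pairs were nearly identical. Bub1b (BubR1), which binds Cdc20 in the checkpoint complex, gave 431 and 454 units in the wild type and 597 and 601 in the SerpinB2-/- samples (log2 0.44 ± 0.059, adjusted p = 0.0166). Mad2l1, whose product holds Cdc20, rose by 0.49 ± 0.069 (adjusted p = 0.0181), while its 2 further probes gave 0.31 and 0.28 without passing. Bub3, a WD40 adaptor that recruits both Bub kinases, was the exception, at 7591 and 7339.6 units in the wild type and 8361 and 7763 in the SerpinB2-/- samples (log2 0.11 ± 0.066, adjusted p = 0.304; interval -0.062 to 0.28).

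Anaphase. Of the 4 genes of anaphase and its control 3 rose. Cdc20, the activator of the APC/C, gave 4184 and 4094 units in the wild type and 4984 and 5536 in the SerpinB2-/- samples (log2 0.34 ± 0.074, adjusted p = 0.0432). Ube2c, the E2 enzyme of the APC/C, gave 3219 and 3332 units in the wild type and 4715 and 4549 in the SerpinB2-/- samples (log2 0.50 ± 0.059, adjusted p = 0.0126), and a further probe 0.46. Espl1, the protease separase that cuts cohesin, rose by 0.26 ± 0.054 (adjusted p = 0.0405). Espl1 did not pass with normexp (adjusted p = 0.0536), with scaling by detected probes or with the replicate block, and Cdc20 did not with quantile normalization, scaling by detected probes or the block. The separase inhibitor securin, Pttg1, gave 9386 and 9030.4 units in the wild type and 8597 and 8611 in the SerpinB2-/- samples (log2 -0.098 ± 0.057, adjusted p = 0.294; interval -0.25 to 0.051). It was the one member whose SerpinB2-/- samples both lay below wild type, its further probe gave -0.069, and neither passed. Under median scaling, where all genes had a median of 0.14, all 59 members had a log2 change above 0.

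Chromosomal passenger complex. This complex corrects wrong attachments and then organises the midzone, and all 4 of its genes rose. Its kinase Aurkb, probed on chromosome 11 at chr11:68865105-68865164 (mm9), had the largest change of the 59 genes in this fit, at 20.4 and 18.2 units in the wild type and 40.2 and 40.4 in the SerpinB2-/- samples (log2 1.06 ± 0.076, adjusted p = 0.00706, 2.09-fold). The signal was dim, and with normexp the change was 0.47, still past the threshold (adjusted p = 0.0176), and Melk was then the highest at 0.75. Birc5 (survivin), which docks the complex on centromeres, gave 10663 and 9766 units in the wild type and 15088 and 15219.5 in the SerpinB2-/- samples (log2 0.57 ± 0.068, adjusted p = 0.0128). Its 2 further probes gave 0.71 and 0.65. Cdca8 (borealin) and the scaffold Incenp rose by 0.47 ± 0.065 and 0.40 ± 0.063 (adjusted p = 0.0177 and 0.0226), Incenp standing at 5677 and 6069 units against 7665 and 7820.5.

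Kinetochore. Of 4 genes of the centromere and inner kinetochore 3 rose. Cenpk, of the constitutive centromere network, gave 1262 and 1235 units in the wild type and 2089.7 and 1996 in the SerpinB2-/- samples (log2 0.71 ± 0.059, adjusted p = 0.00768), and a further probe 0.80. Cenpi and Cenpn, of the same network, rose by 0.63 ± 0.056 and 0.49 ± 0.061 (adjusted p = 0.00813 and 0.0138). Cenpa, the histone H3 variant that marks the centromere, gave 908 and 858 units in the wild type and 1015 and 1125 in the SerpinB2-/- samples and did not pass (log2 0.28 ± 0.077, adjusted p = 0.0765; interval 0.077 to 0.48), although its groups did not overlap.

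Of the 6 genes of the outer kinetochore and corona, the 5 measured on all 4 arrays rose. The remaining one, Cenpf, met the filter only through the arrays where it was high. The 4 subunits of the NDC80 complex, which binds microtubule ends, changed by 0.65 (Nuf2), 0.60 (Spc24), 0.43 (Ndc80) and 0.35 (Spc25). Nuf2 gave 281 and 299 units in the wild type and 457 and 452 in the SerpinB2-/- samples (log2 0.65 ± 0.061, adjusted p = 0.00885), Ndc80 gave 265 and 240.0 units in the wild type and 343 and 337 in the SerpinB2-/- samples (log2 0.43 ± 0.071, adjusted p = 0.025) and Spc25 gave 7024 and 6325 units in the wild type and 8305 and 8735 in the SerpinB2-/- samples (log2 0.35 ± 0.077, adjusted p = 0.044). In each the SerpinB2-/- samples were above wild type. Spc25 did not pass with normexp (adjusted p = 0.0663), with quantile normalization, with scaling by detected probes or with the replicate block. The motor Cenpe of the corona rose by 0.43 ± 0.072 (adjusted p = 0.0259). Cenpf, a large coiled-coil protein of the corona, was not well above background in wild type, and the 1.38-fold difference to its dim wild type signal (adjusted p = 0.0249) is no lower bound. With normexp its log2 change was 0.14 and did not pass (adjusted p = 0.279), nor did it pass with trended moderation.

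Kinesins. Mitotic kinesins slide spindle microtubules, move chromosomes and build the midbody, and 7 of 9 rose. Kif15, which backs up Kif11 in keeping the spindle bipolar, was the highest at 90.1 and 95.3 units in the wild type and 170.0 and 178 in the SerpinB2-/- samples (log2 0.91 ± 0.064, adjusted p = 0.00706). Kif11 (Eg5) itself gave 153 and 159 units in the wild type and 247 and 227 in the SerpinB2-/- samples (log2 0.60 ± 0.069, adjusted p = 0.012). Kif18a, which limits chromosome oscillation, rose by 0.65 ± 0.055, Kif4 and Kif22, which act on chromosome arms, by 0.53 ± 0.087 and 0.51 ± 0.057, and the microtubule depolymerase Kif2c by 0.52 ± 0.07, each with an adjusted p of 0.0249 or less. Kif20a, a kinesin of the midzone, gave 2697 and 2749 units in the wild type and 3781 and 4049 in the SerpinB2-/- samples (log2 0.52 ± 0.064, adjusted p = 0.0133).

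The 2 kinesins that did not pass were Kif23 and Kif14. Kif23, of the centralspindlin complex, gave 909.6 and 1038 units in the wild type and 1277 and 1086 in the SerpinB2-/- samples (log2 0.28 ± 0.11, adjusted p = 0.158; interval -0.011 to 0.57), its SerpinB2-/- replicate 2 lying just above wild type replicate 2. Kif14, which brings citron kinase to the midbody, gave 24.1 and 25 units in the wild type and 23.3 and 25.9 in the SerpinB2-/- samples, and its groups overlapped (log2 -0.0025 ± 0.075, adjusted p = 0.985; interval -0.20 to 0.19). Its probe was dim, and a further one was not well above background on any array. Racgap1, the partner of Kif23 in centralspindlin, did rise, as described next.

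Spindle proteins and cytokinesis. All 4 spindle microtubule proteins rose, as did the 3 regulators of the contractile ring. Prc1, which bundles midzone microtubules, gave 6655 and 6524 units in the wild type and 9803 and 9719 in the SerpinB2-/- samples (log2 0.57 ± 0.055, adjusted p = 0.00919). Tpx2, the activator of Aurora A, gave 1655 and 1853 units in the wild type and 2431 and 2186 in the SerpinB2-/- samples (log2 0.40 ± 0.09, adjusted p = 0.0489), close to the threshold. Nusap1 rose by 0.51 ± 0.057 (adjusted p = 0.0114), and Hmmr, a spindle assembly factor and hyaluronan receptor, gave 987 and 1050.1 units in the wild type and 1256 and 1217 in the SerpinB2-/- samples, a small rise (log2 0.28 ± 0.063, adjusted p = 0.0479). Neither Hmmr nor Tpx2 passed with the authors' values or with outlier spots kept.

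In cytokinesis, Ect2, the exchange factor that turns on RhoA at the cell equator, gave 1738 and 1807 units in the wild type and 2620.2 and 2683 in the SerpinB2-/- samples (log2 0.58 ± 0.058, adjusted p = 0.00967). The scaffold Anln (anillin) gave 6058 and 6204 units in the wild type and 9014 and 8879.7 in the SerpinB2-/- samples (log2 0.55 ± 0.056, adjusted p = 0.00987). Racgap1 gave 1887 and 1922 units in the wild type and 2574 and 2576 in the SerpinB2-/- samples (log2 0.43 ± 0.055, adjusted p = 0.0142), and its further probe 0.46. Within each genotype the samples of these genes differed by little compared with the distance between the genotypes.

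Chromosome structure. All 7 genes of condensation and chromosome structure rose, with a median of 0.60. Ncapg, a condensin I subunit, gave 53.8 and 54.2 units in the wild type and 93.8 and 92.8 in the SerpinB2-/- samples (log2 0.79 ± 0.055, adjusted p = 0.00706), while Ncaph, the kleisin of the same complex, gave 3302 and 3599.8 units in the wild type and 4928 and 4387 in the SerpinB2-/- samples (log2 0.43 ± 0.086, adjusted p = 0.0374). The condensin ATPases Smc2 and Smc4 rose by 0.57 ± 0.055 and 0.54 ± 0.067 (adjusted p = 0.00919 and 0.0139). Mki67, which encodes the proliferation marker Ki-67 that coats mitotic chromosomes, gave 5350.0 and 5963 units in the wild type and 9006 and 8163 in the SerpinB2-/- samples (log2 0.60 ± 0.087, adjusted p = 0.0187), and a further probe 0.58. Top2a gave 1020.5 and 1085 units in the wild type and 1679.5 and 1571 in the SerpinB2-/- samples (log2 0.63 ± 0.069, adjusted p = 0.0109), and Hmgb2 gave 4605 and 4072 units in the wild type and 6734 and 7102 in the SerpinB2-/- samples (log2 0.68 ± 0.083, adjusted p = 0.0135). In these genes the lowest SerpinB2-/- sample lay well above the highest wild type sample.

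**Figure D3:**
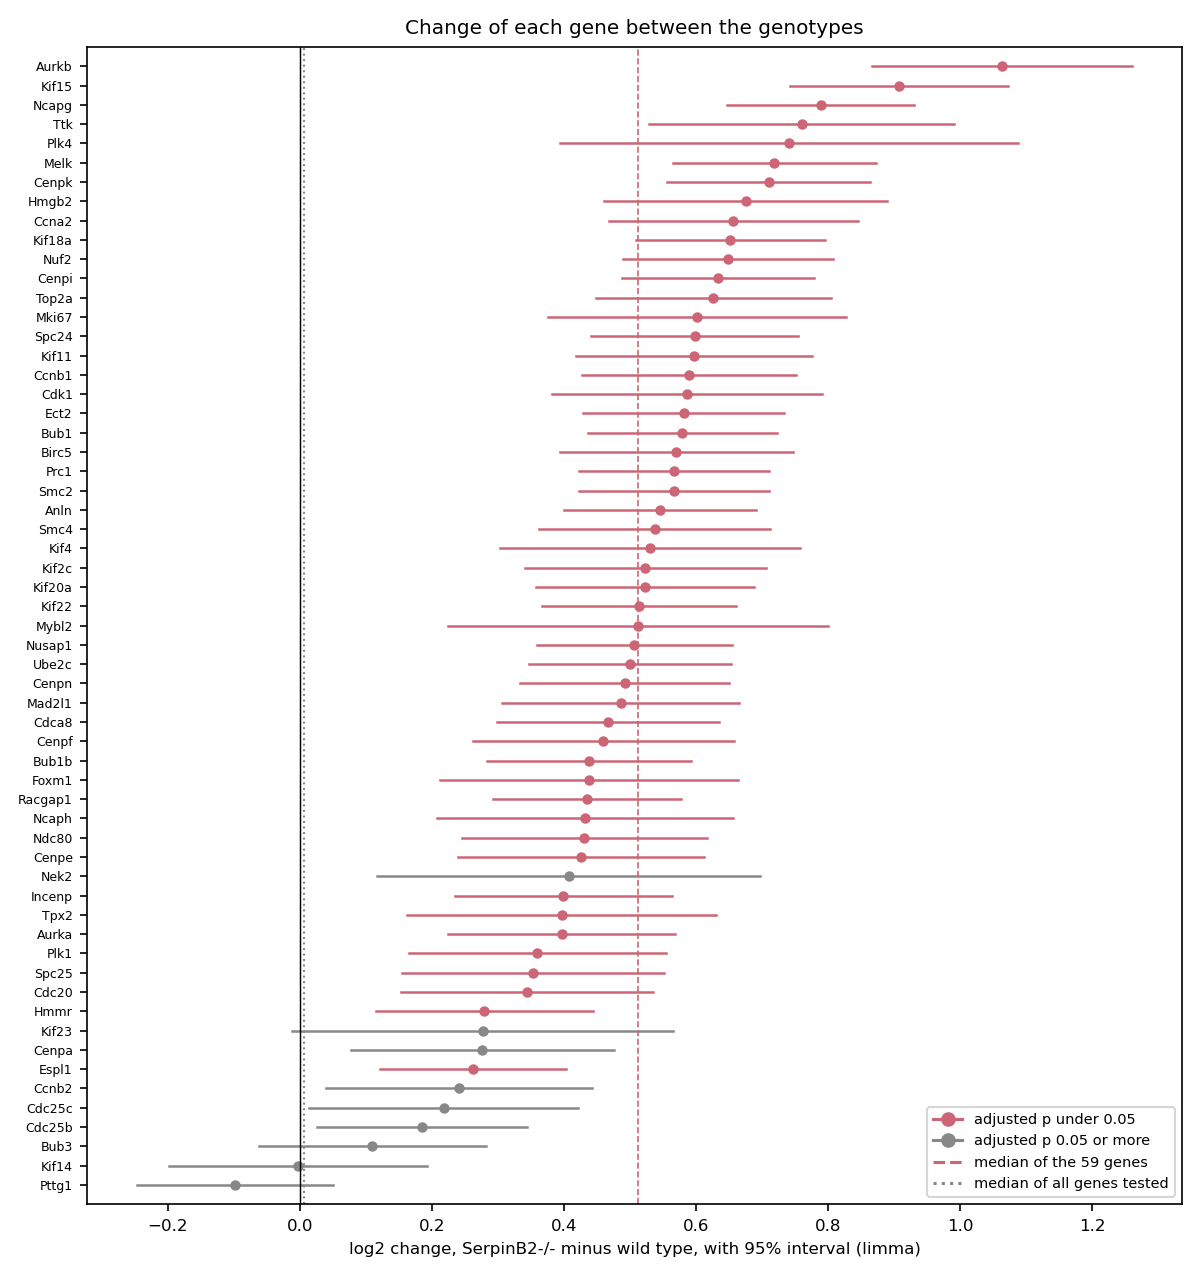
Log2 change of each of the 59 genes, SerpinB2-/- minus wild type, as a point with its 95% interval from limma (n = 2 per group), in red where the adjusted p was under 0.05 and grey otherwise. The genes run from Pttg1 at -0.098 to Aurkb at 1.06 around a median of 0.51 (dashed line), while the median of all genes (dotted line) is near 0, and 9 genes are grey.

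The 9 genes that did not pass were Ccnb2, Cdc25b, Cdc25c, Nek2, Bub3, Pttg1, Cenpa, Kif14 and Kif23. For 5 of them (Ccnb2, Cdc25b, Cdc25c, Cenpa and Nek2) the 95% interval lay above 0, and for Bub3, Kif14, Kif23 and Pttg1 it included 0. The 5 passed with median scaling, under which all genes had a median of 0.14. That setting called 23.6% of all genes higher, against 6.01% as reported, and Ccnb2 and Cdc25b passed in no other. A missed threshold does not show that the 9 transcripts were equal between the genotypes.

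Several probes allowed a check within genes. The 59 genes had 84 probes, of which 78 were measured, and 19 further probes in 15 genes could be set beside the brightest. Of these 14 rose and 0 fell when every probe was tested by itself. The share of all probes called in that fit was not counted. The further probes read the same samples on the same arrays, so they are not independent measurements of the genotype difference. Their changes ran from -0.069, in Pttg1, to 0.80, in Cenpk, and the median spread among probes of a gene was 0.12. The largest spread was 0.26, in Cdk1, 1 of whose probes gave 0.34. For Mybl2 the brightest probe gave 0.51 and a further one 0.73, and for Foxm1 the further probe gave 0.21 and did not pass.

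Genes of the same programme outside the group were counted from 4 further lists. Of 28 measured centromere and kinetochore genes 19 rose and 0 fell (median 0.40), of 18 condensin, cohesin and chromatid separation genes 10 rose and 0 fell (0.33), of 33 spindle, centrosome and cytokinesis genes 11 rose and 0 fell (0.27), and of 35 G2/M regulators and APC/C genes 11 rose and 0 fell (0.19). Together 51 of 114 rose (44.7%), against 6.01% of all genes. At an unadjusted p under 0.05, 78 of the 114 were higher and 4 lower, beside 2860 and 3429 of all 18390 genes. With 1 array left out 14 to 28 of the 114 rose, the fewest without wild type replicate 1.

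Each list is shown by its 3 largest changes, all past the threshold. The 3 SKA genes, whose products track microtubule ends at the kinetochore, rose by 0.93 ± 0.12 (Ska2), 0.77 ± 0.059 (Ska3) and 0.74 ± 0.08 (Ska1), with adjusted p of 0.0138, 0.00706 and 0.0109. Esco2, which acetylates cohesin, gave 116 and 136 units in the wild type and 239 and 237 in the SerpinB2-/- samples (log2 0.92 ± 0.09, adjusted p = 0.00922), Ncapg2, of condensin II, rose by 0.72 ± 0.091, and the centromere protector Sgo2a by 0.66 ± 0.064. The mitotic kinase Pbk gave 819 and 882 units in the wild type and 1766 and 1731 in the SerpinB2-/- samples (log2 1.04 ± 0.065, adjusted p = 0.00704). Fbxo5 (Emi1), an inhibitor of the APC/C, and Pkmyt1, an inhibitory kinase of CDK1, rose by 0.69 ± 0.10 and 0.57 ± 0.071. Depdc1a, Kif24 and Shcbp1 led the spindle and cytokinesis list at 0.72 ± 0.084, 0.64 ± 0.089 and 0.61 ± 0.057.

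The list most like the group, of G1/S and DNA replication genes, is given side by side only. Of its 37 measured genes 34 rose (91.9%) and 0 fell, with a median of 0.47 and a range of 0.28 to 0.85. The replication licensing factor Cdc6 gave 227 and 259 units in the wild type and 468 and 407 in the SerpinB2-/- samples (log2 0.85 ± 0.10, adjusted p = 0.0138), the primase subunit Prim1 2499 and 2591 units in the wild type and 4654 and 4231 in the SerpinB2-/- samples (log2 0.80 ± 0.072, adjusted p = 0.00826) and the thymidine kinase Tk1 2419 and 2546 units in the wild type and 4504 and 4097 in the SerpinB2-/- samples (log2 0.79 ± 0.074, adjusted p = 0.00867). A difference between this list and the mitosis group was not tested. With 1 array left out, 4 to 24 of the 37 rose, the fewest without wild type replicate 1.

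**Figure D4:**
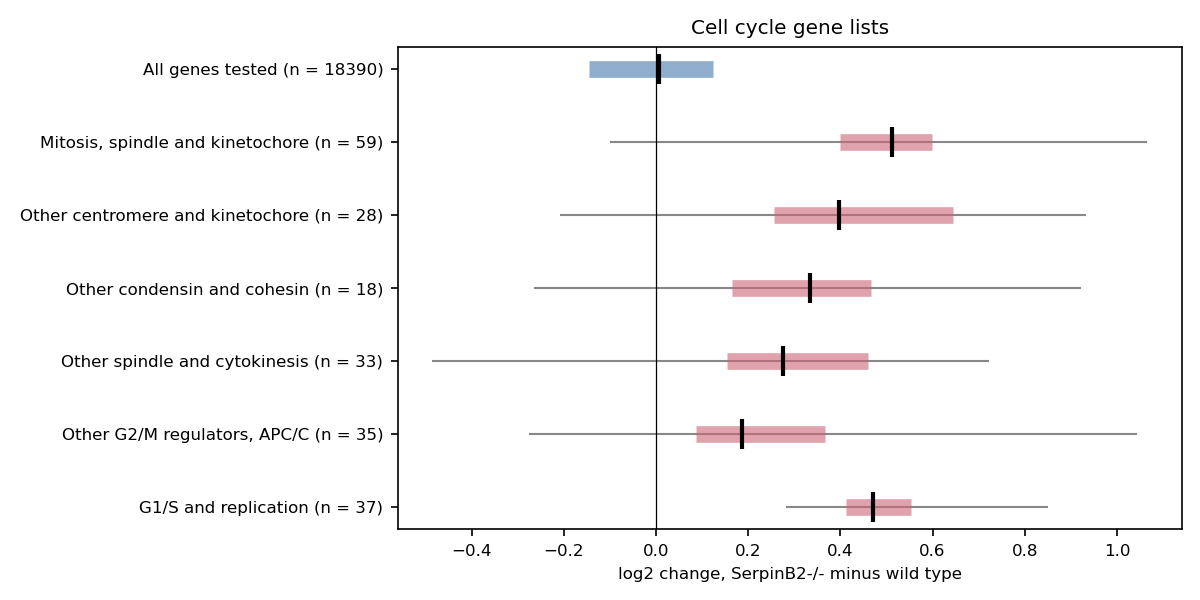
Log2 change, SerpinB2-/- minus wild type, for all genes tested and for 6 cell cycle lists (n = genes measured), with the median as a black tick, the quartiles as a thick bar and, for the lists, the range as a thin line. The mitosis group and the G1/S list have medians of 0.51 and 0.47, the 4 further mitosis lists 0.19 to 0.40, and all genes 0.0060.

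The level of a probe and the size of the change were weakly related. Over the 59 genes, which share the 4 arrays, Spearman's rho between mean level and log2 change was -0.21, and 0.057 with normexp. Aurkb, Ttk and Cenpf were the called members whose change became smaller by over 1.5 times with normexp, and 2 of the 3 kept their call. Over all 59 genes the median was 0.48 with normexp, and 47 rose.

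**Figure D5:**
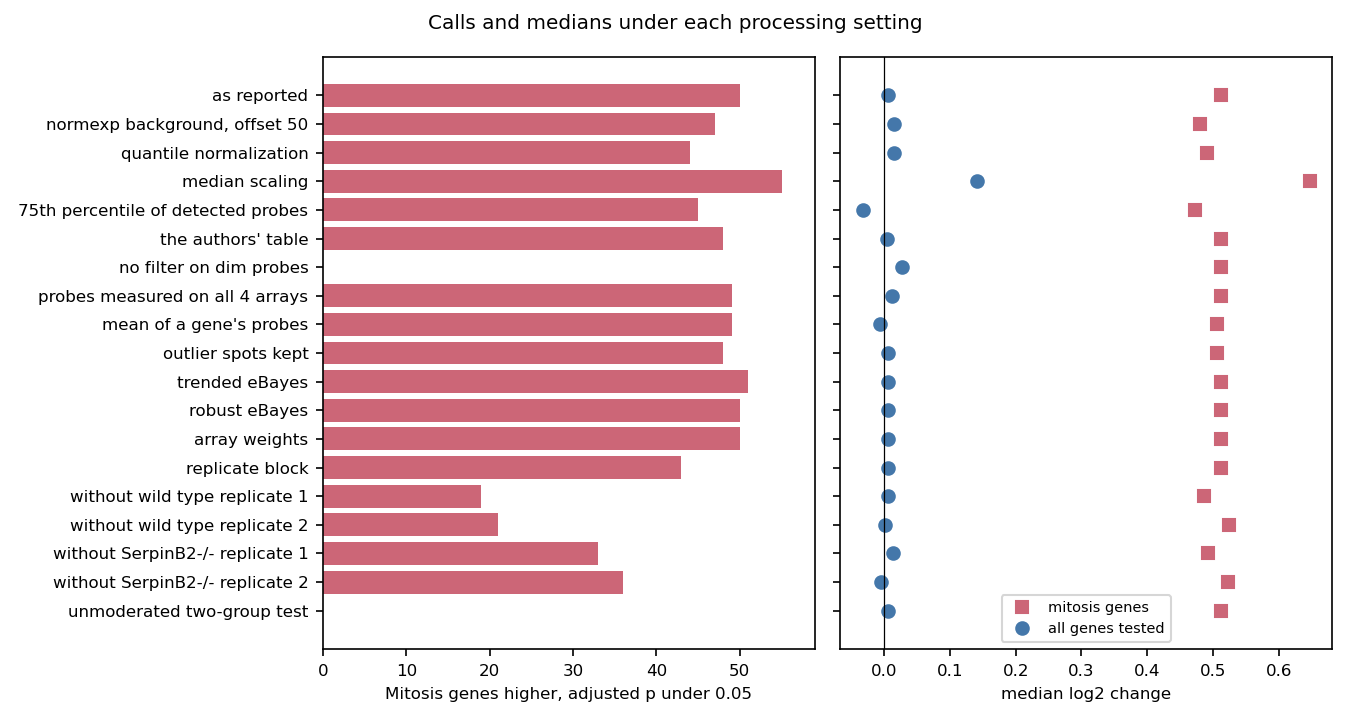
Number of the 59 mitosis genes that rose at an adjusted p under 0.05 (left, horizontal bars from 0) and the median log2 change of the mitosis genes (red squares) and of all genes tested (blue circles) under each processing setting (rows). Between 43 and 55 genes rose with all arrays, the filter and moderation kept, 19 to 36 with 1 array left out, and 0 with dim probes kept or without moderation, while the median stayed between 0.47 and 0.65.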

How the data were processed

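Each of the 4 samples was hybridised to its own one-colour Agilent array, from 150 ng of RNA labelled with Cy3, per the labels. The deposited intensity values were made with Agilent Feature Extraction 10.7.3.1, per the submitters' processing notes and the file headers, by background subtraction, removal of spatial and multiplicative trends and replacement of dim spots with surrogates. The deposited value table, whose processing is not given in the sources used here, held intensity scaled by the authors to a 75th percentile of 1500 with a floor of 4, and served as an alternative.

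Control spots and outlier spots were left out, log2 values of the 4 spots of a probe were averaged, and the 75th percentile of each array was subtracted. Probes with over 50% of spots well above background on both arrays of a genotype were kept. Of 39429 probes 28328 were named by accession and 243 by an older symbol from RefSeq (GRCm38.p6), whose coordinates were not used for probes; positions of probes are from the files (mm9). SerpinB2-/- minus wild type was fitted in R 4.3.3 with limma 3.58.1 (eBayes, Benjamini-Hochberg). The procedure was run on simulated arrays of independent genes, with spread drawn from limma's own fitted model. Such arrays cannot show how it performs on genes that move together or on technical replicates. Motifs were counted with Python 3.11.15.

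Members and lists were chosen with earlier results of these data known. Values in every sample are given for a fixed set of anchors, the highest and lowest member of each role and members that did not pass, with the 3 largest changes of other lists. The number of arrays limits the precision: with 2 samples against 2, an exact permutation test of one gene could not pass.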

Additional observations from a re-analysis of the deposited data

How the results depend on the processing

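Across the 18 alternatives, 57 of 59 members had a log2 change above 0 wherever they were measured (a filter on all 4 arrays left out Cenpf). The exceptions were Pttg1 and Kif14, and no called member reversed. All alternatives drew on the same 4 arrays. Those that changed only the test, such as the robust and unmoderated fits, kept the log2 changes and could not alter a direction. As reported, 51.2% of all genes had a log2 change above 0. With all arrays, the filter and moderation kept, 43 to 55 members rose, and 40 rose in each of those 13 settings. The members' median was 0.48 with normexp, 0.65 with median scaling and 0.47 with scaling by detected probes. Less the median of all genes it was 0.51 under both scalings, as reported. Median scaling called 4338 genes higher in all and 88 of the 114 other mitosis genes, and trended moderation 1738 genes. With no filter on dim probes, 0 members, 1 gene in all, 0 other mitosis genes and 0 G1/S genes rose, and with an unmoderated test 0 of each. The cause was not tested. With 1 array left out, the ranges were 19 to 36 for members, 209 to 497 for all genes, 14 to 28 for other mitosis genes, 4 to 24 for G1/S genes and 0.49 to 0.52 for the members' median. The replicate block left 43 members and 689 genes that rose. The replicate numbers are shared by title only, and same-numbered arrays had deviations correlated at 0.26 over 18390 genes, which with 2 numbers does not establish pairs. Aurkb, Ttk and Cenpf, whose probes were dim, had changes over 1.5 times smaller with normexp, so the size of these changes is uncertain. Aurkb and Ttk kept their call with normexp, and Cenpf did not.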
